A study of Mus musculus with 96 samples.

Results

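The BCL2 family genes Bmf, Bcl2l11, Bbc3, Bid, Bad, Bcl2, Bcl2l1, Mcl1, Bax and Bak1 were followed in microglia of mice that had abdominal surgery or were controls. These 10 genes were found by Ensembl identifier among 54532 gene models, and each has a row in the counts of all 96 libraries (Bak1 was at 0 in 5 libraries and Bbc3 in 1). Microglia, the resident macrophages of the brain, had been sorted from wild-type mice as CD11b+ Fcrls+ Ly6C- cells, with 1000 cells lysed per library for Smart-seq2, a full-length RNA sequencing method for small samples. Young mice were 3 to 5 months old and old mice 20 to 22 months. Surgery and control groups were taken at 6 h and at 48 h, and the handling of the controls is not described. Each of 48 animals gave a hemisphere and a hippocampus library, so that 96 libraries fall into 16 groups. The young groups held 4 animals each. The old groups held 8 controls and 7 surgery animals at 6 h, and 8 controls and 9 surgery animals at 48 h.

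The BCL2 family decides whether the outer mitochondrial membrane is opened, the step that commits a cell to intrinsic apoptosis. The effectors BAX and BAK form the pores, BCL2, BCL-XL (from Bcl2l1) and MCL1 hold them in check, and the BH3-only proteins switch the effectors on or block their inhibitors. BH3-only genes are the inducible part of the family: Bmf and Bcl2l11 (BIM) are known as genes of cytoskeletal and growth factor stress, Bbc3 (PUMA) as a p53 target, while BID and BAD are switched mainly by cleavage and phosphorylation. Microglia turn over slowly and depend on growth factor signals for survival. RNA levels do not show the activity of these proteins.

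Sequence upstream of the starts is shown for 3 BH3-only genes that differ in base composition and in a motif, credited to RefSeq on GRCm38.p6, the build of the deposited data (mm10). All 10 genes matched the RefSeq table, with 18 windows of 250 bases before a start. Of these, 240 bases are printed per window, 5′ to 3′ on the strand of the gene, with the FOXO heptamer GTAAACA, or its reverse complement, in capitals. The windows are at chr2:118549697-118549936 for Bmf (minus strand), chr2:128125788-128126027 for Bcl2l11 (plus strand) and chr7:16310011-16310250 for Bbc3 (plus strand).
Bmf: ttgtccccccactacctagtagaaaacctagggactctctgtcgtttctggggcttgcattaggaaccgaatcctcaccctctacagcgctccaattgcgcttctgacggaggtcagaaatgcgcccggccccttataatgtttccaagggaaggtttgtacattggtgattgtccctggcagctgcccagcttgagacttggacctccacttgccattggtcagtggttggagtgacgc
Bcl2l11: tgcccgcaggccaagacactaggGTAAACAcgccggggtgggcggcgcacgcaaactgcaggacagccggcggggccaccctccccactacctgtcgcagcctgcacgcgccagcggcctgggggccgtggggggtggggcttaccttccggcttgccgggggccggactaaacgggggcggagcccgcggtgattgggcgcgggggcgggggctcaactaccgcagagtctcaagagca
Bbc3: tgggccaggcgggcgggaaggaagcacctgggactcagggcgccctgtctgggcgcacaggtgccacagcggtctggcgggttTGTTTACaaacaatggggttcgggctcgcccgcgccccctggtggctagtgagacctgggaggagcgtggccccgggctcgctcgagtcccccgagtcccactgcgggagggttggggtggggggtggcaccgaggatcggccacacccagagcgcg

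The heptamer was searched on both strands. It was in 2 of the 18 windows, and 3.17% of all 32851 windows hold it. In 1 of 2 Bcl2l11 windows it lies 227 bases before the start, and in 1 of 3 Bbc3 windows, that of an inner start, 167 bases before the start. Those are the windows printed, and the other windows of both genes and all 3 Bmf windows do not hold these letters. The palindrome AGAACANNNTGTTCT, known as a binding sequence of the glucocorticoid receptor, was in 0 of the 18 windows and in 0.00913% of all windows. CpG dinucleotides numbered 8 in the printed Bmf window, counted over all 250 bases, 24 in that of Bcl2l11 and 23 in that of Bbc3, against a median of 6 over all windows. The other windows held 3 and 5 for Bmf, 30 for Bcl2l11, and 27 and 37 for Bbc3. These matches describe letters in the window and were not tested as sites.

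Libraries held 1874168 to 3778939 estimated counts, of which 15 repeat-like or ribosomal gene models took 53% to 81.2%. In 6 libraries, all taken at 6 h and called stepped libraries here, the low values did not run in single steps. Values are given in CPM, counts per 1000000 counts of the whole library after TMM scaling. The summed level of 12 microglial markers ran from 3409.9 to 12331 CPM, and marker sums of 9 further cell types reached at most 168 CPM. All 7 neutrophil markers were at 0 in most libraries.

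Mcl1 and Bcl2l1, both survival genes, stood highest of the 10 per length, and Bcl2 lowest. Levels between genes are compared per kb of merged exon. Averaged over the 96 libraries, Mcl1 reached 11.7 ± 2.53 CPM per kb (SD) and Bcl2l1 8.23 ± 2.35. The effector Bax followed at 6.29 ± 1.58, and then the BH3-only genes Bid (4.87 ± 1.4), Bmf (2.28 ± 1.92), Bbc3 (1.98 ± 0.871), Bad (1.77 ± 0.80) and Bcl2l11 (1.11 ± 0.692). The effector Bak1 (0.659 ± 0.685) and the survival gene Bcl2 (0.355 ± 0.173) closed the order. Neighbours in this order were not cleanly separated: Mcl1 was above Bcl2l1 in 76 of 96 libraries, and Bmf above Bbc3 in only 44.

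**Figure D1:**
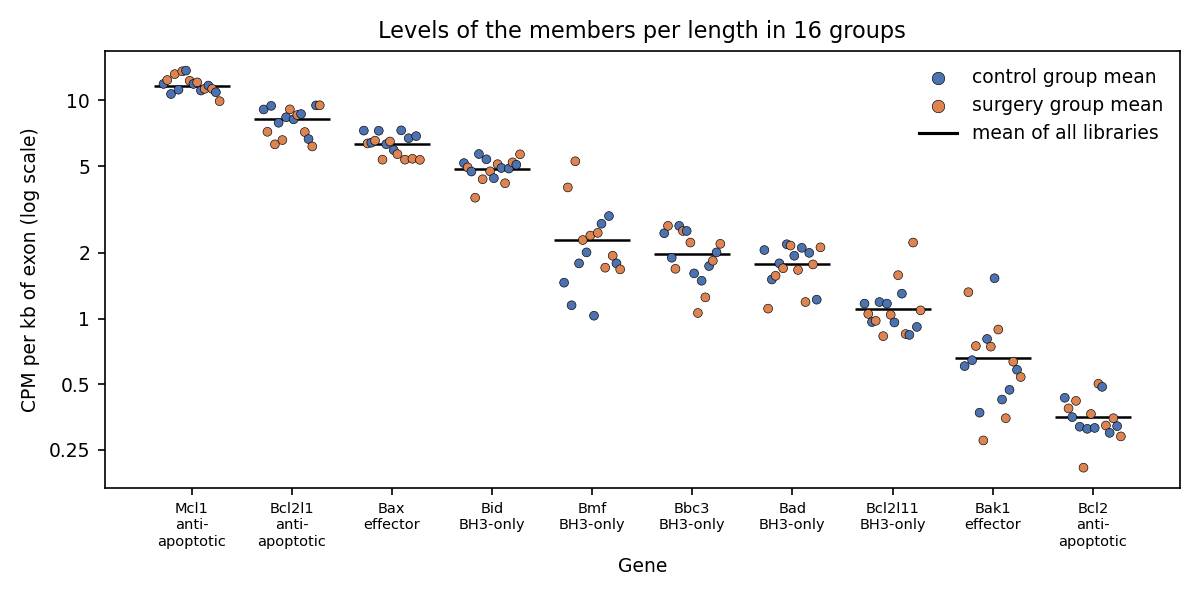
Mean level of each member in CPM per kb of merged exon (vertical axis, log scale) in each of the 16 groups, as points coloured by treatment, with a line at the mean of all 96 libraries. Mcl1 lies highest at 11.7 and Bcl2 lowest at 0.355, and Bmf and Bak1 show the widest spread of group means.

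Of the members other than Bak1, Bmf varied most between groups. Its group means ran from 5.39 ± 2.70 CPM in young control hippocampus at 6 h to 27.6 ± 16.6 CPM in old surgery hemisphere at 6 h, a ratio of 5.13. For Mcl1 the same ratio was 1.38, for Bax 1.4, for Bcl2l1 1.54 and for Bid 1.59. Bak1, with a median of 3.00 counts per library, had a ratio of 5.54. The next highest Bmf group was young surgery hemisphere at 6 h, at 21 ± 15.1 CPM. In the order of the 16 Bmf means, all 15 neighbouring pairs differed by less than the larger of their SDs.

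**Figure D2:**
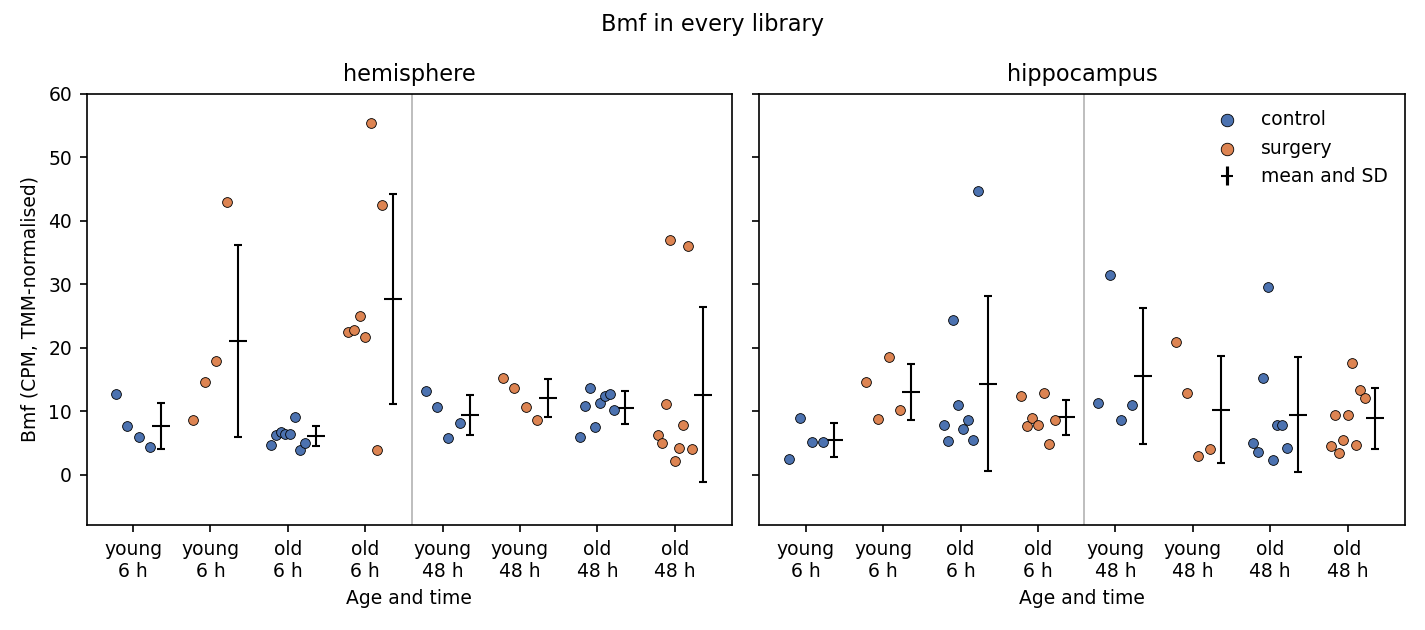
Bmf level in CPM (vertical axis) in every library, by age, time and region, with surgery and control libraries in different colours and the group mean with its SD beside them. Of the old surgery hemisphere libraries at 6 h, 6 lie between 21.7 and 55.3 CPM and 1 at 3.83, against 3.83 to 9.0 in the controls.

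Bmf was higher after surgery in hemisphere microglia of old mice at 6 h, and this was the only surgery comparison in which a member passed the test. Bmf (ENSMUSG00000040093, chr2:118528757-118549687, minus strand) encodes Bcl-2-modifying factor, a BH3-only protein that binds survival members of the family. The 8 control libraries ran from 3.83 to 9.0 CPM with a median of 6.31. The 7 surgery libraries ran from 3.83 to 55.3 CPM with a median of 22.7. Of the surgery libraries, 6 lay above every control and 1, replicate 6, stood level with the lowest control, so the groups overlapped. The log2 fold change was 2.17 ± 0.38 (SE), with an edgeR quasi-likelihood adjusted p (Benjamini-Hochberg, BH) of 0.00582. With the replicate number as a block it was 1.95 ± 0.44 (edgeR BH 0.0829), and the call was lost. Replicate numbers at 6 h follow the sort numbers in the library names: replicate 1 spans 40 to 43 and replicate 4 spans 52 to 55. The block thus groups different animals whose sort numbers lie near each other. Bmf was the only one of 9 tested members past a BH of 0.05, and 0.337% of all 12760 genes tested there were past it in either direction (0.259% higher). This rise was known when Bmf was chosen, so the count is no independent support for it.

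The low surgery library is a stepped library, as is control replicate 7. Without both, the Bmf fold change was 2.31 ± 0.34 (edgeR BH 0.000574). Fkbp5, Ddit4 and Tsc22d3, glucocorticoid-induced genes, serve as references. In the low library Fkbp5 was at 28.6 CPM and Ddit4 at 2.06 CPM, both the lowest of the surgery libraries and above every control. Tsc22d3 was at 62.2 CPM there, and its lowest surgery value, 46.8 CPM, was in replicate 7, which held 42.5 CPM of Bmf. An exact two-sided permutation test on log2(CPM + 1) gave a difference of 1.77 for Bmf (p = 0.00280, BH 0.0224 over 8 surgery comparisons).

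Some old animals carry sort numbers within the range of the young animals and some outside it. Within the range, the 3 surgery libraries held 22.5 to 24.9 CPM of Bmf and the 3 controls 6.27 to 6.77, without overlap. The exact permutation p was 0.10, the smallest that 3 against 3 allows. An edgeR fit with these old animals and the young ones gave 1.86 ± 0.49 (BH 0.419), so the call was lost. That fit of 14 libraries called 0 higher and 0 lower of 12010 genes, so the loss was not particular to Bmf. Outside the range, 4 surgery libraries at 3.83 to 55.3 CPM stood against 5 controls at 3.83 to 9.0 (exact permutation p = 0.0952). The differences in mean log2(CPM + 1) were 1.71 within and 1.80 outside the range. Both sets are parts of the libraries in which the Bmf rise was known, so they are no independent support for it. How many other genes separated the groups without overlap was not counted. A part of sort order in the Bmf difference was not tested.

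Marker sums of other cell types were compared in the same 15 libraries. Astrocyte markers summed to a median of 71.2 CPM (47.9 to 83.3) after surgery and 47.3 CPM (28.6 to 72.5) in controls, and microglial markers to 5237 and 5719 CPM. Neutrophil markers had a median of 0 CPM after surgery and 0.533 CPM in controls, with 1 surgery library at 168. Their part in the Bmf difference was not tested. In bulk libraries, fewer cells expressing a gene and less RNA per cell cannot be told apart.

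Young mice at 6 h gave Bmf values in the same direction without passing the test. In young hemisphere the controls held 12.7, 7.62, 5.89 and 4.36 CPM and the surgery libraries 8.64, 14.5, 17.8 and 42.9 CPM. Of the 4 surgery libraries, 3 lay above every control, and the highest stood well apart from the rest. The fold change was 1.48 ± 0.52 (edgeR BH 0.873), and 0.86 without that library, replicate 4. None of 9 members was called there, as against 0.0627% of all genes. In young hippocampus the controls held 2.38, 8.95, 5.10 and 5.13 CPM and the surgery libraries 14.6, 8.67, 18.5 and 10.2 CPM. Again 3 of 4 surgery libraries lay above every control, with a fold change of 1.29 ± 0.56 (edgeR BH 0.60). None of 9 members was called there either, as against 0.0365% of all genes. Control replicates 1 and 4 there are stepped libraries, and without stepped libraries the fold change was 0.89 ± 0.72. Both exact permutation tests gave p = 0.0571, where 4 against 4 allows no p below 0.0286.

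In old hippocampus at 6 h Bmf was not called. The 8 controls ran from 5.24 to 44.7 CPM with a median of 8.20, and the 7 surgery libraries from 4.85 to 12.8 with a median of 8.51. The ranges overlapped, and the high values, 44.7 and 24.4 CPM, were both in controls. The fold change was -0.60 ± 0.40 (edgeR BH 0.730), with 0 of 9 members and 0.0876% of all genes called. Surgery replicates 5 and 6 there are stepped libraries, and without stepped libraries it was -0.64 ± 0.45. With the replicate block it was -0.01.

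Whether age changed the surgery effect on Bmf at 6 h was tested directly. The old minus young difference was 0.69 ± 0.64 in hemisphere (edgeR BH 0.999) and -1.89 ± 0.69 in hippocampus (BH 0.511). Neither passed, and no gene of either fit did (0% in both). The approximate 95% interval of the difference ran from -0.56 to 1.94 in hemisphere and from -3.23 to -0.54 in hippocampus. These intervals are not adjusted for the number of genes tested. The share of all genes with an unadjusted edgeR p below 0.05 was 3.98% in hemisphere and 9.28% in hippocampus. Without young surgery replicate 4 the hemisphere value was 1.31. In hippocampus, where young control replicates 1 and 4 and old surgery replicates 5 and 6 are stepped libraries, the value without stepped libraries was -1.53 ± 0.85, and with the replicate block -1.25 ± 0.55. Fits without 1 library gave -2.21 to -1.36 in hippocampus and 0.35 to 1.31 in hemisphere.

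At 6 h, hemisphere and hippocampus of the same old animals were compared for Bmf. Hemisphere exceeded hippocampus in 6 of 7 old surgery animals at 6 h, and in 2 of 8 old controls. The mean log2 difference, hippocampus minus hemisphere, was -1.28 ± 0.83 (SD) after surgery and 0.79 ± 1.05 in controls. These differ by -2.07 (exact two-sided permutation p = 0.00124, BH 0.00497 over the 4 combinations of age and time), a test chosen after the values were seen and resting on the hemisphere libraries described above. In edgeR with the animal as a block, hippocampus minus hemisphere in old surgery animals was -1.42 ± 0.37 (BH 0.744), and the difference of that from controls was -2.25 ± 0.52 (BH 0.690). Without stepped libraries the latter was -2.43 ± 0.53 (edgeR BH 0.767). Across all 14906 genes each of these called 0%, so Bmf did not pass there. In young mice at 6 h the same difference between surgery and control animals was -0.03 (exact permutation p = 0.943). The edgeR contrast without stepped libraries, 2 of which are young control hippocampus libraries, was -0.53 ± 0.82. In old mice at 48 h hemisphere exceeded hippocampus in 5 of 9 surgery animals and 6 of 8 controls, and surgery minus control was 0.40 (exact permutation p = 0.560). In young mice at 48 h it was -1.08 (exact permutation p = 0.171).

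**Figure D3:**
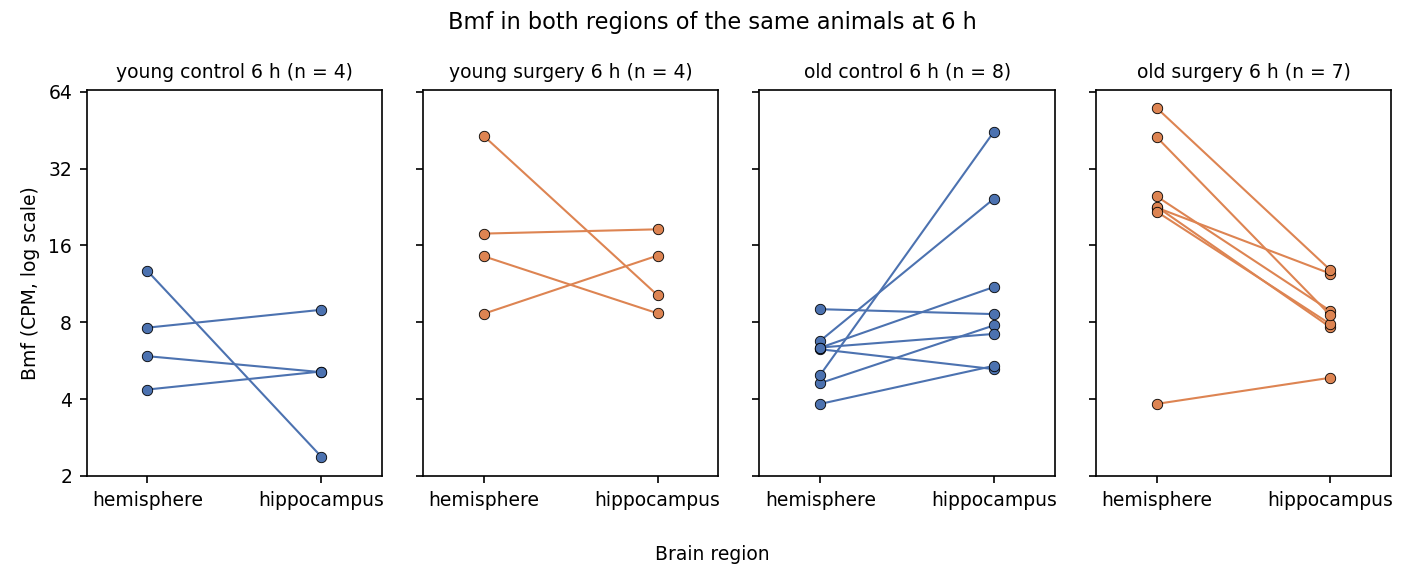
Bmf level in CPM (vertical axis, log scale) in the hemisphere and hippocampus of each animal at 6 h, lines joining the 2 libraries of an animal, in 4 panels by age and treatment. Lines fall from hemisphere to hippocampus in 6 of 7 old surgery animals and in 2 of 8 old controls.

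At 48 h no surgery difference in Bmf passed the test in either region or age, and edgeR called 0% of all genes in each of these 4 comparisons. Old surgery hemisphere libraries ran from 2.08 to 37.0 CPM with a median of 6.22, and old controls from 5.95 to 13.7 with a median of 11. In that surgery group 2 libraries, at 37.0 and 36 CPM, lay above every control and 4 lay below every control. The fold changes were 0.28 ± 0.42 in old hemisphere, 0.43 ± 0.62 in young hemisphere, -0.15 ± 0.44 in old hippocampus and -0.66 ± 0.62 in young hippocampus. Without control replicate 2 the last was -0.07. Differences in mean log2(CPM + 1) had the opposite sign in both old groups, so no direction is read there. They were -0.27 in old hemisphere (exact permutation p = 0.566) and 0.13 in old hippocampus (exact permutation p = 0.775). In young mice they kept the sign, at 0.35 in hemisphere and -0.73 in hippocampus. In old hemisphere the effect at 48 h minus that at 6 h was -1.88 ± 0.60 (edgeR BH 0.295, with 0.170% of all genes called). Between ages, old minus young control values of Bmf were of either sign and none passed, in comparisons that use the same controls as the surgery contrasts. In hippocampus the log2 difference was 1.41 ± 0.51 at 6 h (edgeR BH 0.445; 1.02 ± 0.67 without stepped libraries) and -0.72 ± 0.53 at 48 h (BH 0.788; -0.13 without young control replicate 2). At 6 h, fits without 1 library gave 0.88 to 1.72. The old controls there had a median of 8.20 CPM, with libraries at 44.7 and 24.4 CPM. The means at 48 h were 9.43 CPM in old and 15.5 CPM in young controls, with 6 of 8 old libraries below every young one. In hemisphere the difference was -0.27 ± 0.47 at 6 h and 0.20 ± 0.55 at 48 h.

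**Figure D4:**
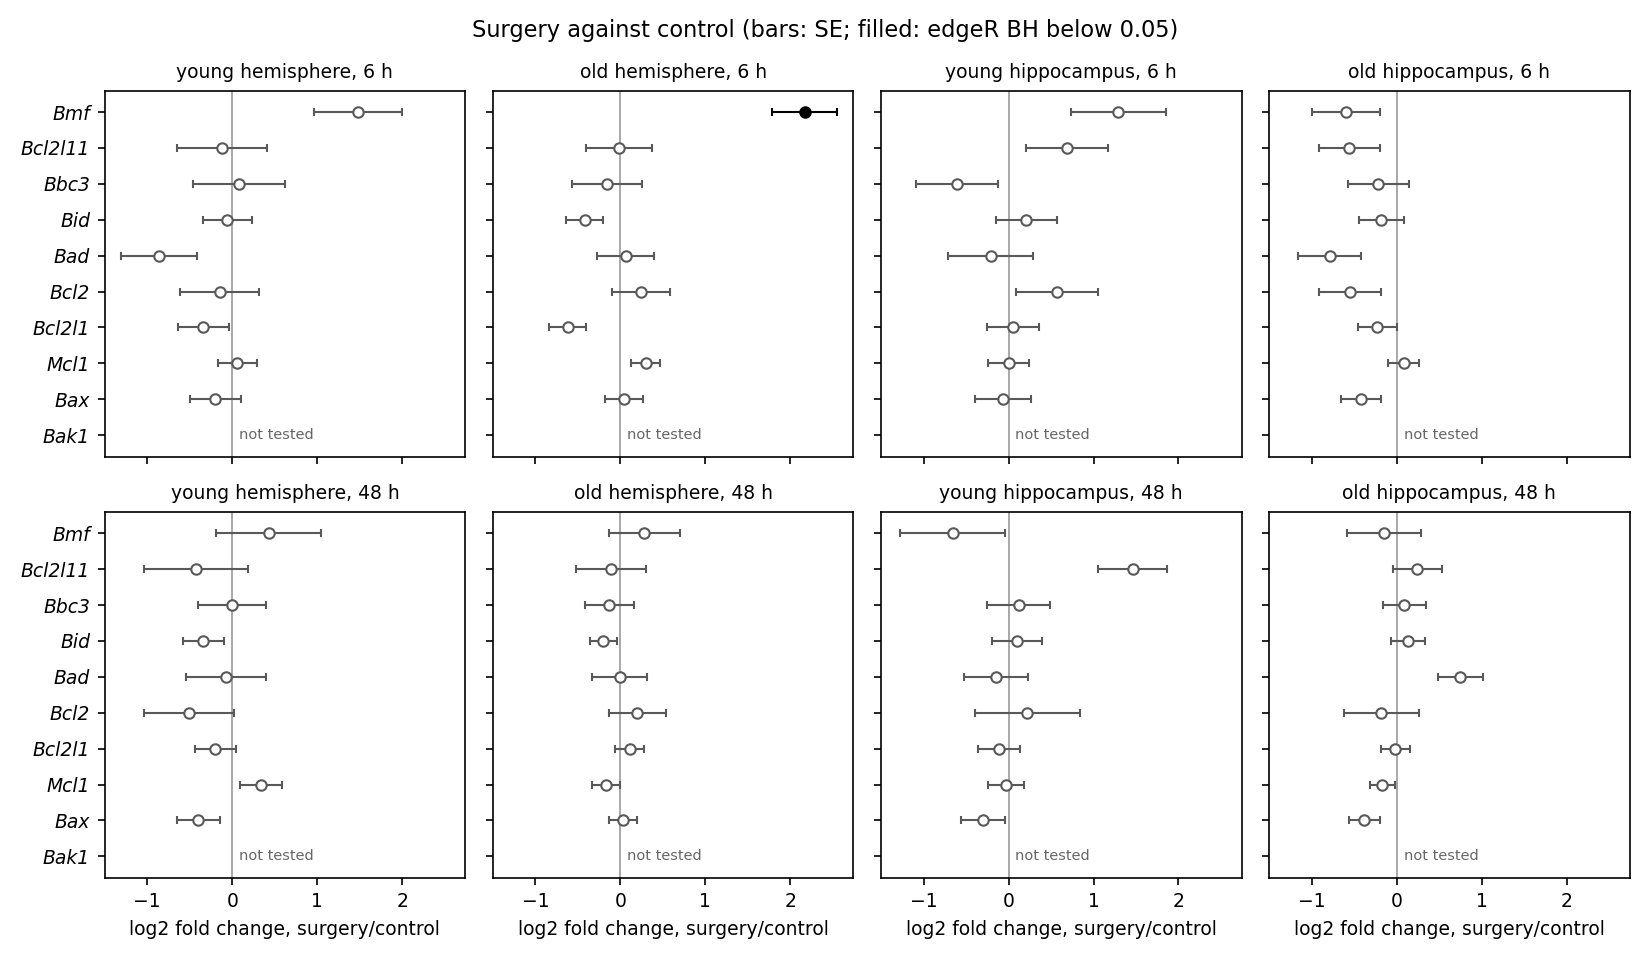
Log2 fold change of surgery against control (horizontal axis, bars show SE) for the members in the 8 surgery comparisons, 1 panel each, with filled points past an edgeR BH of 0.05. The filled point is Bmf in old hemisphere at 6 h, at 2.17. Bak1 did not pass the count filter.

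None of the other BH3-only genes passed the test in a surgery comparison. Bcl2l11 (ENSMUSG00000027381, chr2:128126038-128162547, plus strand) encodes BIM, which binds every survival member of the family and can activate the effectors. In old hemisphere at 6 h it ran from 4.27 to 17.3 CPM in controls and from 3.32 to 16.9 after surgery, overlapping widely (log2 fold change -0.02 ± 0.39, edgeR BH 0.994). In young hippocampus at 48 h its controls held 4.79, 7.49, 9.56 and 5.17 CPM and its surgery libraries 11.2, 25.1, 29.5 and 5.98 CPM. There 3 of 4 surgery libraries lay above every control and the fourth among them. The fold change of 1.46 ± 0.41 did not pass (unadjusted p = 0.00126, edgeR BH 0.529), in a comparison where 6.12% of all genes had an unadjusted p below 0.05.

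Bbc3 (ENSMUSG00000002083, chr7:16308393-16318205, plus strand) encodes PUMA, the BH3-only protein best known as a p53 target. Its counts were low, with a median of 11 per library. Surgery fold changes ran without a call at every age, time and region, and in old hemisphere at 6 h the value was -0.16 ± 0.41 (edgeR BH 0.964). There the controls ran from 1.49 to 6.05 CPM, and the surgery libraries from 0 to 5.06 CPM, overlapping widely.

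Bid (ENSMUSG00000004446, chr6:120891930-120916853, minus strand) encodes the protein that caspase-8 cleaves to link death receptors to mitochondria. In old hemisphere at 6 h it ran from 11 to 20.8 CPM in controls with a median of 16.6, and from 7.42 to 20.2 CPM after surgery with a median of 10.2. Of the 7 surgery libraries, 4 lay below every control, and the fold change was -0.42 ± 0.22 (edgeR BH 0.647). Exons of Bid overlap those of Bcl2l13 on the opposite strand, and the sources do not say if counting used strand, so reads of the pair cannot be told apart.

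Bad (ENSMUSG00000024959, chr19:6941861-6951899, plus strand) encodes a BH3-only protein held inactive by survival kinases. In old hippocampus at 6 h its median was 5.87 CPM in controls (1.64 to 8.78) and 3.25 CPM after surgery (1.56 to 4.28). At 48 h the order was opposite, with 2.70 CPM in controls (1.52 to 5.31) and 5.24 CPM after surgery (2.93 to 8.57). The fold changes were -0.79 ± 0.37 (edgeR BH 0.588) and 0.75 ± 0.27 (BH 1.00), and their difference of 1.56 ± 0.46 did not pass either (BH 0.440). Exons of Gpr137 overlap Bad on the opposite strand.

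Among the survival genes, Bcl2l1 gave lower values after surgery in the comparison in which Bmf was called, without passing the test. Bcl2l1 (ENSMUSG00000007659, chr2:152780668-152831728, minus strand) encodes BCL-XL. In old hemisphere at 6 h its controls ran from 29.0 to 55.3 CPM with a median of 44, and its surgery libraries from 13 to 45.5 CPM with a median of 21.4. Of the 7 surgery libraries, 4 lay below every control and the others among them. The fold change was -0.62 ± 0.22 (unadjusted p = 0.00899, edgeR BH 0.345), where 8.07% of all genes had an unadjusted p below 0.05. At 48 h in the same groups it was 0.11 ± 0.17, and the difference between times was 0.73 ± 0.27 (edgeR BH 0.452).

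Mcl1 (ENSMUSG00000038612, chr3:95658788-95663176, plus strand) encodes a short-lived survival protein that many myeloid cells need. Its median within-group coefficient of variation, 19.9%, was the lowest of the 10 genes, against 52.3% for Bmf. In old hemisphere at 6 h it ran from 24.7 to 50.8 CPM in controls and from 35.4 to 57.0 CPM after surgery, with 1 surgery library above every control (0.30 ± 0.17, edgeR BH 0.687). Bcl2 (ENSMUSG00000057329, chr1:106538178-106714274, minus strand), the founding survival gene, rested on a median of 8 counts per library. It gave 0.24 ± 0.34 in the same comparison (edgeR BH 0.917), and exons of the antisense model D630008O14Rik overlap it.

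The effectors showed no called change. Bax (ENSMUSG00000003873, chr7:45461697-45466898, minus strand) forms pores in the mitochondrial membrane and held 10.1 ± 3.37 CPM in old control hemisphere at 6 h and 10.3 ± 1.80 CPM after surgery. The fold change was 0.04 ± 0.22, and its approximate 95% interval ran from -0.40 to 0.48. In old hippocampus at 48 h, 4 of 9 surgery libraries lay below every control, with medians of 8.91 and 10.8 CPM (-0.38 ± 0.18, edgeR BH 1.00). Exons of Gm45808 overlap Bax on the same strand. Bak1 (ENSMUSG00000057789, chr17:27019810-27029009, minus strand), the other pore former, had 0 counts in 5 of 96 libraries and passed the count filter in none of the 8 surgery comparisons. Its group means ran from 0.665 to 3.69 CPM.

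Counts of low p-values were taken over all comparisons. In the 28 comparisons of surgery, age, region and time, 258 tests of members were made, and 25 of them (9.69%) had an unadjusted p below 0.05, of which 9 were of Bmf. Across all genes the share was 5.98%. The rise of Bmf was known when it was chosen, and the comparisons share libraries, so their tests are not independent. The gap between these shares is therefore not read as an excess of low p-values among the members. Only Bmf in old hemisphere at 6 h had an edgeR BH below 0.05, and DESeq2 called no other member in any of the 28 comparisons. Between old and young controls 0 of 9 members were called in each region and time, where 0.0784% (hemisphere, 6 h), 0.0898% (hemisphere, 48 h), 0.0584% (hippocampus, 6 h) and 0.0834% (hippocampus, 48 h) of all genes were. Between regions no member was called in any of 8 comparisons, and the share of all genes called was 0.0297% in old controls at 48 h and 0% in the other 7. For the change of the surgery effect between times, the share was 0.00707% in young hemisphere and 0% in hippocampus of both ages, again without a member.

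Genes that act beside the 10 members were taken from 5 lists of 73 genes in all. They cover other BCL2 relatives, the apoptosome and caspases, inhibitors of apoptosis with the death receptor pathway, regulators of BH3-only proteins, and p53 targets. No gene of these lists was called in any of the 28 comparisons, where between 0% and 0.337% of all genes were. The 1514 tests made leave out list genes below the count filter, for which no change can be read. Of these tests, 7.33% had an unadjusted edgeR p below 0.05, beside 5.98% over all genes. The comparisons share libraries, so the gap is not read as an excess. In old hemisphere at 6 h, the medians of the log2 fold changes were -0.21 for 6 tested relatives, 0.07 for 11 apoptosome genes, -0.08 for 12 inhibitors and death receptor genes, 0.07 for 16 regulators and -0.08 for 7 p53 targets, beside -0.02 for all genes. The relative with the highest level per length was Bcl2a1b, a survival gene of leukocytes, at 39.2 CPM per kb, above Mcl1. Its near-identical copies Bcl2a1a and Bcl2a1d can share its reads, so this value is uncertain. In old hemisphere at 6 h it gave -0.13 ± 0.14 (edgeR BH 0.890). Bnip3l, which marks mitochondria for removal, gave -0.03 ± 0.29. Casp8, the initiator caspase of death receptors, gave 0.07 ± 0.15, and Cflar, its inhibitor, -0.11 ± 0.17. Htra2, a mitochondrial protease, gave -0.09 ± 0.21, and Tnfrsf1a, the main TNF receptor, 0.07 ± 0.23. Ywhaz, a 14-3-3 protein that can hold BAD, gave 0.20 ± 0.20, and the transcription factor gene Jun -0.02 ± 0.18. Of the p53 targets, Sesn1, a sestrin, gave 0.42 ± 0.18 (edgeR BH 0.512), and Cdkn1a, the cell cycle inhibitor p21, -0.35 ± 0.22.

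Genes with a pattern like that of Bmf were ranked by Pearson's r over the 16 group means of log2(CPM + 1), among 2670 genes of higher level, as a description. The leading 5 were Tulp4 (0.80), Arrb2 (0.77), Jade2 (0.76), Sipa1 (0.75) and Abhd15 (0.75), and no gene reached 0.9. For the reference genes Tsc22d3, Fkbp5 and Ddit4 the values were 0.72, 0.70 and 0.68. They had been picked as genes of the surgery response at 6 h, and their rank among all genes was not taken. Ddit4 lies below the level required of the 2670 genes. Among the other members the values ran from -0.56 for Bcl2l1 to 0.55 for Mcl1. The groups share libraries' depth and, between regions, their animals. In old hippocampus at 6 h, Fkbp5 stood at 12.3 ± 4.43 CPM in controls and 49.9 ± 10.6 CPM after surgery, while Bmf stood at 14.3 ± 13.8 and 8.99 ± 2.79 CPM.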

How the data were processed

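The deposited values are estimated counts, whole numbers for each Ensembl gene model and library, named in the file headers. Build mm10, R 4.2.1 and DESeq2 1.36.0 are listed by the submitters' processing notes. Aligner, counter, annotation and strand setting were not given in the sources used here. Values entered the tests as deposited. Of 54532 identifiers, 54495 matched the GENCODE annotation used for symbols, exon lengths and coordinates. The members, lists and tests were chosen with earlier results of these data known. The design assumed counts, and the count test was kept for these estimated counts although low values in 6 libraries did not run in single steps (values of 1 made up 4.11% to 24.7% of values from 1 to 3, against at least 42.7% elsewhere).

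Tests were edgeR 4.0.16 quasi-likelihood F-tests (R 4.3.3, TMM, robust, filterByExpr with a minimum count of 10). BH adjustment ran over all genes tested, with a threshold of 0.05. SEs were derived from the fold change and its F statistic and are approximate, most so near 0. Each region and time was fitted as 4 groups. Regions were compared with the animal as a block, since both libraries of an animal carry 1 sort number. Fits were tested on simulated data. Bmf was also tested by exact permutation of log2(CPM + 1). Alternatives were DESeq2 1.42.0, other size factors, no filter, fewer libraries and a replicate block. Animals within a group are taken as separate mice from their sort numbers. No molecular identifiers are named, so counts may not be independent molecules. Besides the members, the text names the 2 list genes with the highest level in each list, list genes that were called, 3 reference genes and the 5 genes most like Bmf. Bcl2a1a and Bcl2a1d were named after values were seen.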

Additional observations from a re-analysis of the deposited data

Results flagged for a closer look

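In 13 of 160 sets of libraries (10 genes in 16 groups) 1 library stood apart from the rest of its group by Dixon's criterion. For normally distributed values chance flags about 1 set in 20, or 5%. CPM values that rest on few counts need not follow that distribution, so 13 flags are not read as an excess. Bmf stood at 31.4 CPM in young control hippocampus at 48 h replicate 2, against 8.60 to 11.2 in the others. Bcl2l11 was high in 4 libraries: 28.2 CPM in old control hemisphere at 48 h replicate 8 (others 3.63 to 12.3), 14.7 in old control hippocampus at 48 h replicate 2 (5.64 to 8.46), 28 in old surgery hemisphere at 48 h replicate 4 (3.64 to 9.14) and 12.5 in old surgery hippocampus at 6 h replicate 4 (4.2 to 7.78). Old surgery hemisphere at 48 h replicate 4 also held the highest Bmf of its group, 37.0 CPM, and a Bak1 value of 6.58 CPM that stood apart (others 0.366 to 2.66).

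Bak1, which rests on few counts, also stood apart at 7.31 CPM in old control hemisphere at 48 h replicate 3, 3.90 in old control hippocampus at 48 h replicate 3, 3.17 in young surgery hippocampus at 48 h replicate 2 and 7.16 in young surgery hippocampus at 6 h replicate 4. Bcl2l1 was low at 30.5 CPM in old surgery hippocampus at 48 h replicate 3 (others at least 41.2). Bax was high at 11.6 CPM in young surgery hemisphere at 48 h replicate 3 (7.05 to 7.79). Bbc3 was at 0 CPM in old surgery hemisphere at 6 h replicate 7 (2.96 to 5.06).

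The surgery effect on Bmf in old animals at 6 h was flagged for a difference between regions of -2.07 on the log2(CPM + 1) scale (hippocampus minus hemisphere, exact permutation BH 0.00497). The edgeR contrast did not pass (BH 0.690). The permutation test was chosen after the values were seen. It rests on the hemisphere libraries whose rise was known when Bmf was chosen, so it is no independent support.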

How the results depend on the processing

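The Bmf call in old hemisphere at 6 h held in all 15 fits without 1 animal (log2 fold change 1.90 to 2.36, BH 0.000155 to 0.0186), with DESeq2 (2.17) and without a count filter (2.19). It was lost with only the old animals sorted among the young ones (1.86, BH 0.419, 0 members called) and with a replicate block. In the first of these, fewer samples were fitted, and 0 higher and 0 lower of 12010 genes were called. Replicate numbers, which are shared by different animals, follow the sort numbers at 6 h. Same-numbered hemisphere libraries at 6 h correlated at -0.23 to 0.44 in their deviations, and 5 of 22 libraries correlated best with their own number. The number that chance would give was not computed, and a part of sort order in the Bmf difference was not tested. With the block the Bmf value was 1.95 (BH 0.0829), 0 members were called, and all-gene calls went from 33 higher and 10 lower to 27 and 3. DESeq2 called 77 higher and 33 lower. Without a filter, 1 member (Bmf) was called between regions in old surgery animals at 6 h (-1.41, BH 0.00101) and 1 in the added region contrast (-2.29). Of all 49422 genes, 46 higher and 50 lower were called in the first, and 41 higher and 57 lower in the second. With the filter each called 0 of 14906 genes, so the added calls were not particular to Bmf. The cause was not tested. Some Bmf differences without a call changed sign. Ranges over the fits without 1 library crossed 0 for old against young control hemisphere at 6 h (-0.48 to 0.06), region in old surgery animals at 48 h (-0.48 to 0.18), region in young controls at 6 h (-0.76 to 0.09; 0.01 without stepped libraries), region in young surgery animals at 6 h (-0.92 to 0.01), 48 h minus 6 h in old hippocampus (-0.05 to 0.98), old minus young at 48 h in hemisphere (-0.60 to 0.03) and hippocampus (-0.07 to 1.05), and surgery at 48 h in old hemisphere (-0.17 to 0.41) and old hippocampus (-0.32 to 0.36). The added region contrast turned at 48 h in old mice with no replicate block (-0.44) and at 6 h in young mice without a filter (0.02). In the other settings, 319 of 326 fold changes kept their sign and their side of the threshold. These cover Bmf and the members with an unadjusted edgeR p below 0.05 in the fits reported above. Only 1 member test was past the threshold in those fits, so most kept their side by staying uncalled. Depth limits Bak1, Bcl2 and Bbc3 most.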
